A study of Homo sapiens with 6 samples.

Results

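The 10 genes described here were chosen by symbol as genes tied to withdrawal from the cell cycle: YPEL2, YPEL3 and YPEL5, BTG1 and BTG2, the transcription factor FOXO3, and TXNIP, CCNG2, PIK3IP1 and SESN1, which are known as FOXO-linked genes. They were followed among 26195 gene symbols in 6 Drop-seq libraries of PC9, and 9 of the 10 are described, since TXNIP is not analysed here. PC9 is an established cell line from a human lung adenocarcinoma that depends on mutant EGFR, and Drop-seq counts molecules of messenger RNA in single cells by unique molecular identifiers (UMIs). Of the 6 conditions, each with 1 library, 2 were without drug: untreated cells, and cells transduced with a scrambled shRNA (pLVTHM, with GFP). The other 4 had 2 µM of the EGFR inhibitor erlotinib for 1 day, together with a manipulation of the KDM5 histone demethylases. One received CPI-455, a KDM5 inhibitor, at 6.25 µM for 4 days without virus. The other 3 carried shRNA to KDM5A, shRNAs to both KDM5A and KDM5B (pLVTHM vectors), or a KDM5A cDNA under the CMV promoter (pLenti). Erlotinib began on day 4, 5 and 6 after transduction in these last 3 libraries, in that order. Transduced cells were moved to 10% serum, while the stock medium held 5%, and no library had erlotinib alone. CPI-455 and, in that library, erlotinib were dissolved in DMSO. The labels place erlotinib there on the day after seeding and also give 1 day of exposure, so its timing within the 4 days is uncertain.

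Quiescence is a reversible exit from the cycle in which cells lower growth signalling and keep the ability to divide. Active EGFR signals through PI3K and AKT, and AKT phosphorylates FOXO factors and holds them outside the nucleus, so FOXO targets are known to rise when the pathway is inhibited. BTG proteins bind the CCR4-NOT deadenylase and restrain proliferation, and YPEL proteins are small, strongly conserved zinc-binding proteins, of which YPEL3 is known to slow growth and YPEL5 is a subunit of the CTLH ubiquitin ligase.

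The promoters of the YPEL genes that rose together, of BTG1 and of CCNG2 are shown to set their sequence beside the levels. Each line is the 250 bases before the start in RefSeq (GRCh38.p14), read 5′ to 3′ on the gene's strand. Capitals mark matches to GTAAACA (a FOXO motif), ATAAACA (a related forkhead motif) or CACGTG (an E-box) on either strand, and none of the 3 motifs overlapped another there. The windows are YPEL2 at chr17:59331405-59331654 (plus strand), YPEL3 at chr16:30096214-30096463 (minus strand), YPEL5 at chr2:30146757-30147006 (plus strand), BTG1 at chr12:92145847-92146096 (minus strand) and CCNG2 at chr4:77156957-77157206 (plus strand).
YPEL2: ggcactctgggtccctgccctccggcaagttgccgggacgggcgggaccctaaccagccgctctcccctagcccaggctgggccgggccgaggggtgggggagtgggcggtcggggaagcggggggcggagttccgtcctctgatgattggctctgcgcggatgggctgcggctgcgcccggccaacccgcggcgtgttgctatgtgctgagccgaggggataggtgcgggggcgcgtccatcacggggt
YPEL3: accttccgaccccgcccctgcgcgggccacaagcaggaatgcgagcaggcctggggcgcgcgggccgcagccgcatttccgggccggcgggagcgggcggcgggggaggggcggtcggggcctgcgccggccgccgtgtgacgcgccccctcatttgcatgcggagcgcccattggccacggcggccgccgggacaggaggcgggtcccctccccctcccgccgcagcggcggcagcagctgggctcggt
YPEL5: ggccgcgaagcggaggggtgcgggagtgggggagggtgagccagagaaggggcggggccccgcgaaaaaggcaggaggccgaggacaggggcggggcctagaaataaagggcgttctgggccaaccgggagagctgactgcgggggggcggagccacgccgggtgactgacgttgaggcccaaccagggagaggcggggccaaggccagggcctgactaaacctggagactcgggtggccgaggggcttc
BTG1: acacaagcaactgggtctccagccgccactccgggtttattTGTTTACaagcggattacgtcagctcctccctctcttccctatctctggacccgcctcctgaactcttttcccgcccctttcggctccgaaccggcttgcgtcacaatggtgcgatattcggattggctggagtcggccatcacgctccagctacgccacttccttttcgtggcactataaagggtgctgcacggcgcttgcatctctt
CCNG2: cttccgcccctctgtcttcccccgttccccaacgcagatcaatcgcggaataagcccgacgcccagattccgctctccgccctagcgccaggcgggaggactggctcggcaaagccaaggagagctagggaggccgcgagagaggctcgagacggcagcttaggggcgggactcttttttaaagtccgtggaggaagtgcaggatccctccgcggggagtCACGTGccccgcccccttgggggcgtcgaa

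All 9 genes had at least 1 such window, 15 in all, and 3 windows held a match. BTG1 held the FOXO motif, as TGTTTAC, between 209 and 203 bases before its start, and CCNG2 held the E-box between 30 and 25 bases before its start. The third was ATAAACA in 1 of the 4 windows of FOXO3. Among 35116 windows of the same length, 2.98% held GTAAACA, 3.77% ATAAACA and 6.34% CACGTG. The other windows did not hold these letters, the 3 YPEL windows among them.

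The libraries kept between 131 and 1166 cells (500 UMIs or more, no more than 20% of them mitochondrial) and between 590091 and 3956647 UMIs. Median UMIs per cell were 1493.5 in untreated cells and 2985.5 to 3762.5 in the others. Levels are given as CPM, a gene's UMIs per 1000000 UMIs summed over these cells. A count of 0 allowed up to 0.758 CPM in untreated cells and up to 5.08 CPM with KDM5A cDNA, taking 3 counts as the limit. KDM5A stood at 121 CPM untreated, 81.9 scrambled, 120 with CPI-455, 56.4 with KDM5A shRNA, 41.3 in the library labelled KDM5A and KDM5B shRNA and 164 with the KDM5A cDNA. KDM5B, in the same order, stood at 60.4, 46.4, 102, 151, 138 and 94.9 CPM, so it was not low in the library labelled KDM5A and KDM5B shRNA, and directions drawn from that library are those of a library with high KDM5B. Mitochondrial transcripts took 3.98% and 5.03% of UMIs without the drug and 7.04% to 9.18% with it. Processed pseudogenes took 2.49% to 3.42% in 3 of the erlotinib libraries and 1.02% to 1.38% in the untreated, scrambled and KDM5A shRNA libraries. Of the epithelial markers, 8 summed to between 8304 and 12582 CPM, while markers of blood cells, fibroblasts and endothelium summed to at most 1.69, 8.27 and 12.4 CPM. The members with a UMI among these were LYZ, COL1A1, COL1A2, PDGFRB, PECAM1, VWF, CDH5 and CLDN5. Of all barcodes kept, 1 occurred in more than 1 library, CPI-455 and the library labelled KDM5A and KDM5B shRNA.

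The first comparison set the 4 erlotinib libraries against the 2 without the drug. All 4 also carried a KDM5 manipulation, so drug and manipulation cannot be told apart in it. Of the 9 genes, 5 rose: YPEL2, YPEL3, YPEL5, BTG1 and PIK3IP1. Their fitted folds ran from 2.09 for BTG1 to 8.64 for PIK3IP1. BTG2, FOXO3 and CCNG2 did not pass, and SESN1 was too low to be tested. YPEL2 and PIK3IP1 passed the filter on low counts only through the erlotinib libraries, so their calls are descriptions.

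YPEL3, the growth-slowing member of its family, stood at 60.9 CPM in untreated cells and 26.3 in scrambled cells. With erlotinib it stood at 339 CPM with CPI-455, 262 with KDM5A shRNA, 366 in the library labelled KDM5A and KDM5B shRNA and 266 with the KDM5A cDNA. All 4 erlotinib libraries lay above both others, by a wide gap. The highest 2 did not differ beyond counting error (ratio of CPI-455 to the library labelled KDM5A and KDM5B shRNA 0.924, 95% interval 0.781 to 1.09), nor did the KDM5A shRNA and KDM5A cDNA libraries (0.986, 0.819 to 1.19). In every other pair of erlotinib libraries the interval of the higher to the lower lay above 1. Ratios ran from 1.27 (1.05 to 1.56, CPI-455 to KDM5A cDNA) to 1.40 (1.19 to 1.63). The latter was the library labelled KDM5A and KDM5B shRNA to KDM5A shRNA. The fitted log2 fold was 2.83 (SE 0.33, edgeR adjusted p = 0.000419).

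YPEL5, the ubiquitin ligase subunit, stood at 31.8 CPM untreated and 13.9 scrambled. With erlotinib it stood at 109 with CPI-455, 131 with KDM5A shRNA, 123 in the library labelled KDM5A and KDM5B shRNA and 102 with the KDM5A cDNA. The 4 erlotinib levels lay close together and far above both drug-free levels, and in none of their 6 pairs did the interval of the ratio leave 1. The fitted log2 fold was 2.33 (SE 0.31, edgeR adjusted p = 0.000792).

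YPEL2, a relative of YPEL3 and YPEL5, was counted less often, with 27 UMIs in untreated cells and 1 UMI in scrambled cells, or 6.82 and 0.773 CPM. The erlotinib libraries held 42.3 CPM with CPI-455, 23.2 with KDM5A shRNA, 19.3 in the library labelled KDM5A and KDM5B shRNA and 22.0 with the KDM5A cDNA. All 4 lay above both drug-free libraries, and the CPI-455 library lay above the KDM5A shRNA library (ratio 1.83, 95% interval 1.13 to 2.96). The fitted log2 fold was 2.56 (SE 0.57, edgeR adjusted p = 0.0108).

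BTG1, which recruits the deadenylase, was already at 170 CPM in untreated and 195 CPM in scrambled cells. It stood at 403 CPM with CPI-455, 323 with KDM5A shRNA, 339 in the library labelled KDM5A and KDM5B shRNA and 420 with the KDM5A cDNA. The groups did not overlap, but the gap was narrower than for the YPEL genes. The fitted log2 fold was 1.06 (SE 0.21, edgeR adjusted p = 0.00659). Within the erlotinib libraries the KDM5A cDNA and CPI-455 levels were the highest, and KDM5A shRNA lay below KDM5A cDNA (ratio 0.769, 95% interval 0.660 to 0.899).

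BTG2, a p53 target and close relative of BTG1, was rare, with 12 UMIs in untreated cells and 0 in scrambled cells. The erlotinib libraries held 16 UMIs with CPI-455, 8 with KDM5A shRNA, 10 in the library labelled KDM5A and KDM5B shRNA and 2 with the KDM5A cDNA. In CPM these were 3.03 untreated against 18.3, 5.01, 13.8 and 3.39 in that order, so all 4 lay above, KDM5A cDNA barely so. The log2 difference, 2.33 (SE 0.92), did not pass (edgeR adjusted p = 0.0881). Adjusted p ranged from 0.0274 to 0.26 over the alternatives, and 3 of 12 passed: DESeq2 at 0.0446, edgeR without the KDM5A shRNA library at 0.0435, and edgeR with no filter on low counts at 0.0274.

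PIK3IP1, an inhibitor of PI3K at the membrane, stood at 5.31 CPM in untreated cells, from 21 UMIs, and 2.32 CPM in scrambled cells, from 3 UMIs. It stood at 40.1 CPM with CPI-455, 44.5 with KDM5A shRNA and 42.7 in the library labelled KDM5A and KDM5B shRNA, but 13.6 with KDM5A cDNA, from 8 UMIs. All 4 erlotinib libraries lay above both others, with KDM5A cDNA apart from the other 3. KDM5A shRNA against KDM5A cDNA gave a ratio of 3.28 (95% interval 1.58 to 7.89). The fitted log2 fold was 3.11 (SE 0.52, edgeR adjusted p = 0.00243).

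The FOXO3 transcript itself did not pass the test. It stood at 96.3 CPM untreated and 86.5 scrambled, against 141 with CPI-455, 105 with KDM5A shRNA, 92.3 in the library labelled KDM5A and KDM5B shRNA and 146 with the KDM5A cDNA. The groups overlapped, with the level in the library labelled KDM5A and KDM5B shRNA below that of untreated cells, and the log2 difference, 0.44 (SE 0.24), did not pass (edgeR adjusted p = 0.199). FOXO3B, a near-identical copy, had 2 UMIs in all libraries together.

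CCNG2, or cyclin G2, an unconventional cyclin linked to arrest, divided the 2 drug-free libraries. It stood at 43.5 CPM in untreated cells but 7.73 CPM in scrambled cells. The erlotinib libraries lay at 59.5 CPM with CPI-455, 50.7 with KDM5A shRNA, 41.3 in the library labelled KDM5A and KDM5B shRNA and 52.5 with the KDM5A cDNA. These levels overlapped the untreated level and were all above the scrambled level. The fitted log2 difference of 0.94 (SE 0.48) did not pass (edgeR adjusted p = 0.185). Without the untreated library it was 2.69, with an edgeR adjusted p of 0.0034, and without the scrambled library 0.29, with one of 0.582; these are the extremes over the alternatives.

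SESN1, a sestrin that restrains mTORC1 signalling, had 10 UMIs in untreated and 5 in scrambled cells, and 3, 11, 1 and 1 in the 4 erlotinib libraries, in the order above. Its levels of 1.38 to 6.89 CPM with erlotinib overlapped those of 2.53 and 3.86 CPM without. A difference was not detectable at this depth.

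**Figure D1:**
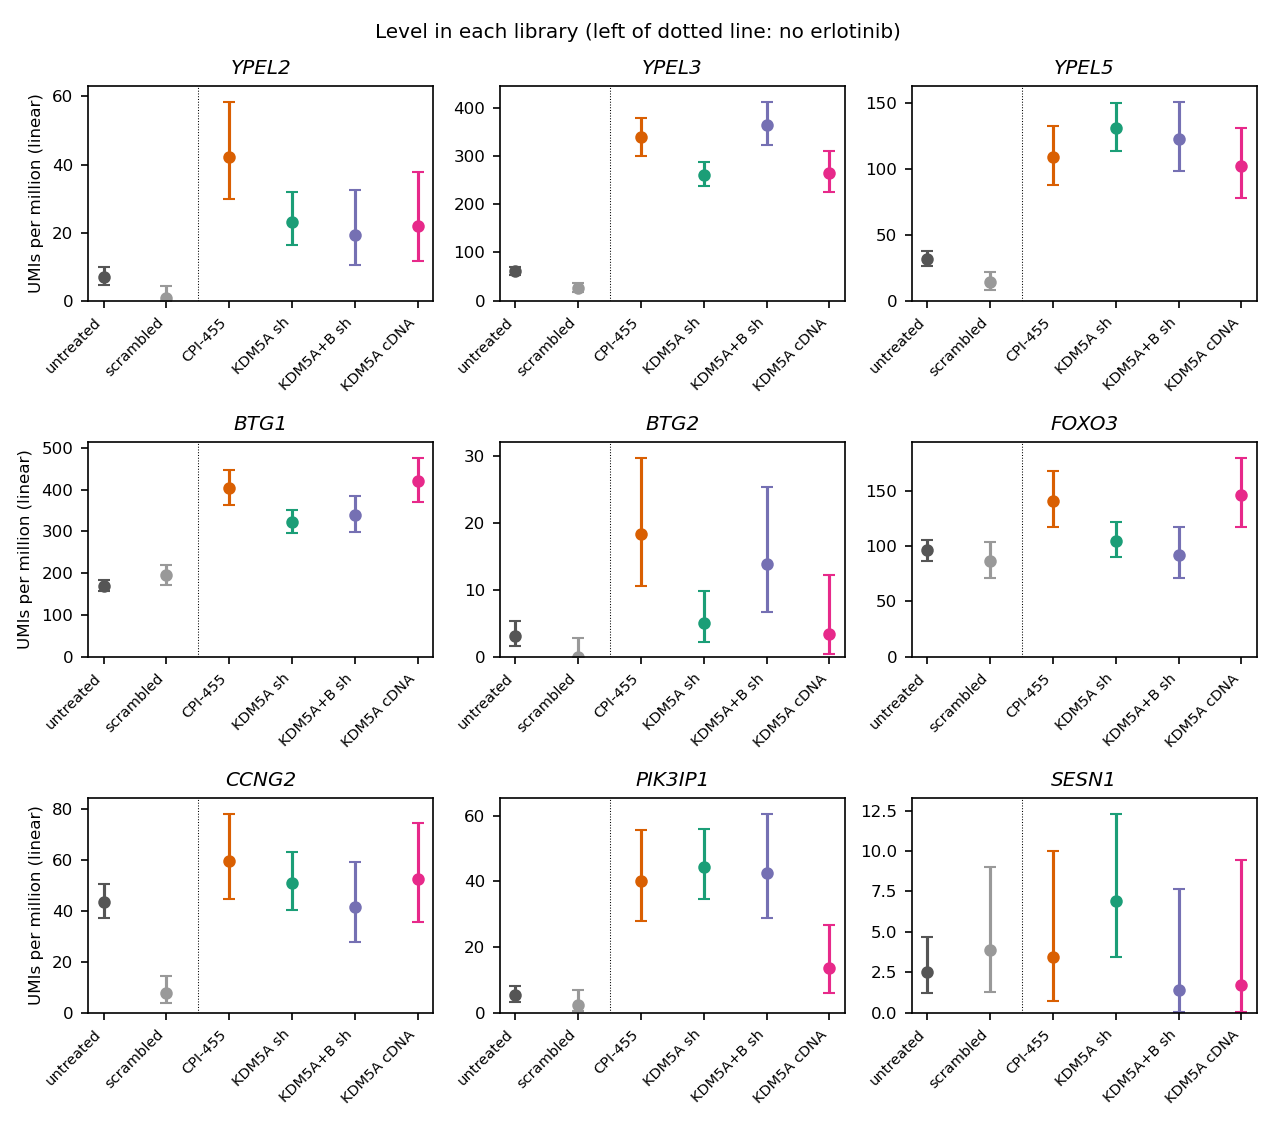
CPM (linear axes, each gene on its own scale) in each of the 6 libraries, with exact 95% Poisson intervals for counting error. The 4 erlotinib libraries, right of the dotted line, lie above both others for YPEL2, YPEL3, YPEL5, BTG1, BTG2 and PIK3IP1 and overlap them for FOXO3, CCNG2 and SESN1. For BTG2 the KDM5A cDNA level rests on 2 UMIs, and its interval overlaps that of untreated cells.

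Of the 8 genes tested, 5 were called higher and 0 lower, where 10.0% of all 10445 genes tested were called higher and 13.5% lower. Of the 8, 6 had all 4 erlotinib libraries above both others, as did 18.6% of all genes tested. BTG2 is among the 6 only by point values, with 2 UMIs in the KDM5A cDNA library. Their median log2 fold was 2.33, against 0.01 over all genes tested. The filter on low counts was passed by 8 of the 9 genes. YPEL3, YPEL5, BTG1 and FOXO3 reached it in both drug-free libraries, while YPEL2, BTG2, CCNG2 and PIK3IP1 passed only through the erlotinib libraries. The count, the median and the calls of YPEL2 and PIK3IP1 are therefore descriptions. The 5 calls remained when any single library was left out. Without the untreated library the log2 folds of YPEL2, YPEL3, YPEL5 and PIK3IP1 grew to 4.89, 3.53, 3.04 and 3.88, with the scrambled library as the one control, and that of BTG2 was 6.35 (edgeR adjusted p = 0.0627). A further fit set the KDM5A shRNA library against the 2 drug-free libraries, all low in pseudogene UMIs. Its log2 folds were 2.68 for YPEL3, 2.58 for YPEL5 and 3.51 for PIK3IP1. SESN1 was tested in it and BTG2 was not. That fit has 1 erlotinib library, assumed to vary like the drug-free libraries, whose difference sets the spread. YPEL2 stood there at 2.48 (edgeR adjusted p = 0.13, from 2.53e-05 over the alternatives) and BTG1 at 0.95 (edgeR adjusted p = 0.16, from 0.000279). BTG1 was also not called in the 4 transduced libraries alone, at 0.89 (edgeR adjusted p = 0.0677).

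**Figure D2:**
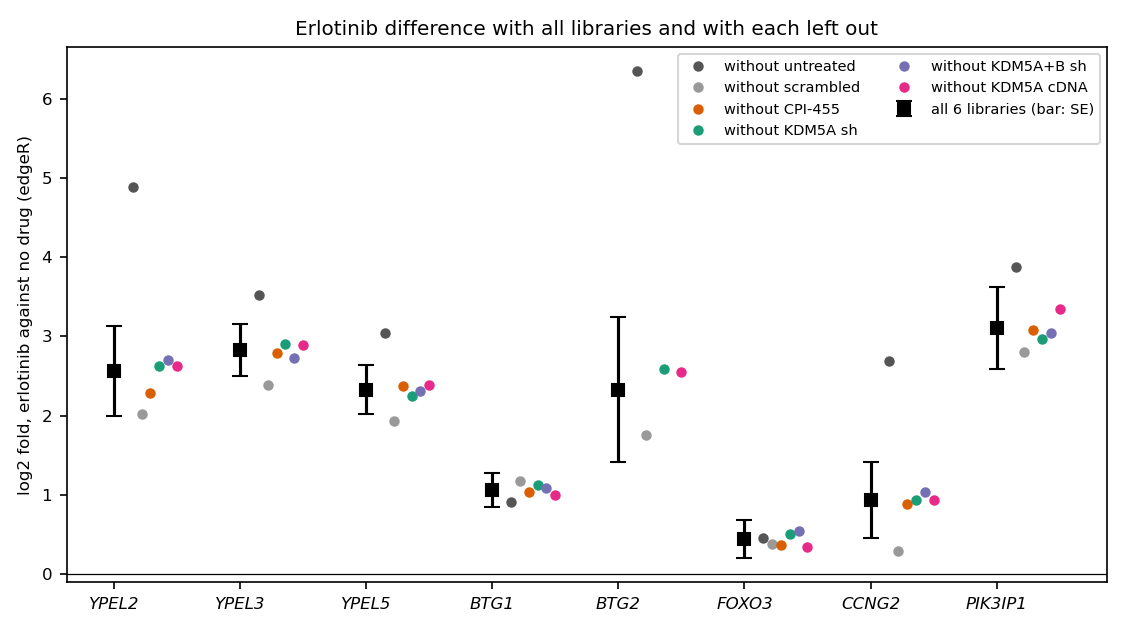
Fitted log2 fold of erlotinib against no drug (edgeR) for the 8 genes tested; squares use all 6 libraries with their standard errors, and dots leave out 1 library each. The highest dot is that of BTG2 without the untreated library, at 6.35. Dots also lie highest without that library for YPEL2 (4.89), PIK3IP1 (3.88), YPEL3 (3.53), YPEL5 (3.04) and CCNG2 (2.69). Those of BTG1 stay between 0.91 and 1.18. BTG2 was not tested without CPI-455 or without the library labelled KDM5A and KDM5B shRNA.

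Transcripts of the cell cycle moved with the same groups. The S phase list summed to 4000 and 5164 CPM without the drug and 485 to 599 CPM with it, and the G2/M list to 10095 and 6800 against 1031 to 1795 CPM. Their part in the differences above was not tested across libraries, and mitochondrial share also moved with the drug.

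Set against the control most like it, each erlotinib library had YPEL2, YPEL3, YPEL5 and PIK3IP1 at least 2-fold higher. These pairs have 1 library a side and were not tested; a gene counts as higher from 2-fold on, with at least 10 UMIs over both libraries, and intervals cover counting error. The 3 transduced libraries share the scrambled control. CPI-455 against untreated cells had 6 of 9 genes at least 2-fold higher and 0 lower, where 17.6% of all genes were as much higher. KDM5A shRNA against scrambled cells had 5 of 8, with 15.4% of all genes. The library labelled with both shRNAs had 6 of 8, with 17.8%, and KDM5A cDNA had 6 of 7, with 17.3%.

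YPEL3 gave ratios of 5.56 (95% interval 4.68 to 6.62) with CPI-455 against untreated cells and 9.99 (7.04 to 14.6), 14.0 (9.74 to 20.6) and 10.1 (6.96 to 15.1) in the transduced libraries against scrambled cells. YPEL5 gave 3.41 (2.59 to 4.49) without virus, and 9.41 (5.81 to 16.2), 8.82 (5.27 to 15.6) and 7.31 (4.26 to 13.2) with it. BTG1 gave 2.36 (2.07 to 2.69) without virus, and 1.66 (1.43 to 1.94), 1.74 (1.45 to 2.08) and 2.16 (1.80 to 2.58) with it. The YPEL3 and YPEL5 ratios were larger in transduced cells and those of BTG1 were not, a difference tested through the interaction with virus.

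PIK3IP1 gave 7.55 (95% interval 4.27 to 13.6) with CPI-455, and 19.2 (6.31 to 95.3), 18.4 (5.75 to 94.2) and 5.85 (1.40 to 34.2) in the transduced libraries, from 3 scrambled UMIs. CCNG2 gave 1.37 (0.984 to 1.88) with CPI-455, and 6.57 (3.39 to 14.2), 5.35 (2.55 to 12.3) and 6.80 (3.25 to 15.5) in the transduced libraries. The CCNG2 interval included 1 without virus and lay above 1 in each transduced library. FOXO3 stayed under 2-fold in all 4, and BTG2 was 6.04 times the untreated level with CPI-455 (2.68 to 14.0). Against the scrambled library, where BTG2 had 0 UMIs, it was at least 2.16-fold higher with KDM5A shRNA and at least 5.94-fold higher in the library labelled KDM5A and KDM5B shRNA, taking 3 counts for the scrambled library. The exact lower 95% limits of these ratios, which also take in the counting error of the 8 and 10 UMIs, were 1.38 and 4.00, and KDM5A cDNA held 2 UMIs.

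The erlotinib difference was then compared between transduced cells and cells without virus, as an interaction term in edgeR. None of the 8 genes passed, nor did any of the 10445 genes tested (0%), and 2 of the 8 had an unadjusted p under 0.05, as did 5.28% of all genes. These were CCNG2, with a difference of 2.16 in log2 units (SE 0.60, edgeR adjusted p = 0.755), and YPEL5, with one of 1.30 (SE 0.50, edgeR adjusted p = 0.927). CPI-455 was the one erlotinib library without virus, so inhibitor, virus and serum cannot be told apart in this comparison.

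The 2 drug-free libraries differed in these genes. In scrambled cells 5 of 9 genes were at least 2-fold lower than in untreated cells and 0 higher, where 12.1% of all genes were as much lower. CCNG2 was the clearest, with a ratio of 0.178 (95% interval 0.0837 to 0.335). YPEL3 stood at 0.431 (0.292 to 0.619), YPEL5 at 0.437 (0.251 to 0.719) and YPEL2 at 0.113 (0.00277 to 0.687), from 1 UMI. PIK3IP1 stood at 0.437 (0.0834 to 1.46), an interval that included 1. BTG1 was at 1.14 (0.985 to 1.32) and FOXO3 at 0.899 (0.721 to 1.11). MALAT1, a nuclear RNA, also differed here, with 1163 CPM in scrambled cells against 5596 in untreated cells and 3606 to 5575 in the others. Virus, serum and median depth per cell differed between these 2 libraries as well, and their part was not tested.

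Among the 4 erlotinib libraries, the genes at least 2-fold apart in some pair were PIK3IP1, YPEL2, BTG2 and SESN1. CPI-455 had 2 of 9 genes so far from KDM5A shRNA, where 23.0% of all genes were, 1 of 8 from the library labelled KDM5A and KDM5B shRNA, where 14.4% were, and 2 of 8 from KDM5A cDNA, where 15.9% were. KDM5A shRNA had 2 of 9 so far from the library labelled KDM5A and KDM5B shRNA, where 14.7% of all genes were, and 2 of 9 from KDM5A cDNA, where 23.8% were. Between the library labelled KDM5A and KDM5B shRNA and KDM5A cDNA it was 2 of 8, where 17.1% of all genes were. These shares of the listed genes were near those of all genes. CPI-455 against KDM5A cDNA had PIK3IP1 at a ratio of 2.95 (95% interval 1.35 to 7.37) and BTG2 at 5.40 (1.27 to 48.4), the latter from 2 UMIs in the KDM5A cDNA library. FOXO3 was lower with KDM5A shRNA (0.722, 0.554 to 0.948) and in the library labelled KDM5A and KDM5B shRNA (0.633, 0.453 to 0.882) than with KDM5A cDNA. YPEL3 was 1.40 times as high in the library labelled KDM5A and KDM5B shRNA as with KDM5A shRNA (1.19 to 1.63).

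The next question was whether more cells carried these transcripts. Each cell was thinned to 1000 UMIs, which left out 344 untreated cells and between 26 and 42 in each other library. A UMI of any of the 9 genes was then found in 35.5% of untreated cells (exact binomial 95% interval 32.2 to 38.9) and 26.6% of scrambled cells (20.9 to 32.9). With erlotinib the share was 68.3% with CPI-455 (60.6 to 75.3), 64.5% with KDM5A shRNA (59.0 to 69.6), 64.5% in the library labelled KDM5A and KDM5B shRNA (55.4 to 72.9) and 64.8% with KDM5A cDNA (54.8 to 73.8). The 4 erlotinib shares lay within each other's intervals and above both drug-free shares. Unthinned, they were 84.7% to 88.0%, against 53.3% of untreated and 62.4% of scrambled cells. Cells with 3 or more of these UMIs after thinning made up 7.83% to 12.8% with erlotinib, against 1.70% of untreated and 0.450% of scrambled cells.

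By gene, a YPEL3 UMI was found after thinning in 6.69% of untreated (5.08 to 8.62) and 2.25% of scrambled cells (0.735 to 5.18). It was found in 26.8% with CPI-455 (20.2 to 34.3), 23.5% with KDM5A shRNA (19.0 to 28.4), 29.8% in the library labelled KDM5A and KDM5B shRNA (22.0 to 38.7) and 24.8% with KDM5A cDNA (16.9 to 34.1). Unthinned, the YPEL3 shares were 15.5% and 9.89% without the drug and 54.2% to 63.8% with it. BTG1 was found after thinning in 15.7% and 15.3% of drug-free cells and 28.2% to 34.1% of erlotinib cells, and unthinned in 31.0%, 46.4% and 60.4% to 67.2%. FOXO3 was found after thinning in 9.61% and 9.46% of drug-free cells, 8.06% to 13.4% with CPI-455 and the shRNAs, and 19.0% with KDM5A cDNA (20 of 105 cells). Unthinned FOXO3 shares ranged from 21.2% in untreated cells to 38.2% with KDM5A cDNA.

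All cells come from 1 line, so no cell type lacking these genes was at hand to measure free RNA. In barcodes under 500 UMIs YPEL3 stood at 59.4 and 50.9 CPM without the drug and between 208 and 446 CPM with it, so those barcodes followed their library. The YPEL genes made up 23.7% and 12.2% of the UMIs of the 9 genes in untreated and scrambled cells, and 38.0% to 48.9% with erlotinib.

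**Figure D3:**
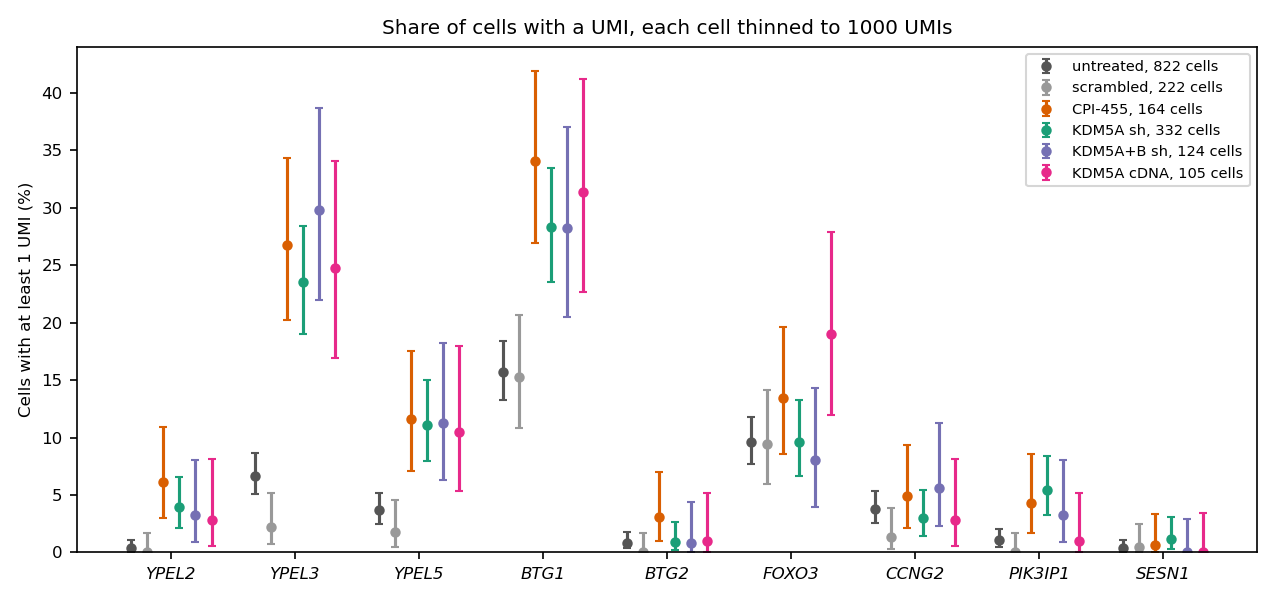
Share of cells (percent, linear axis) with at least 1 UMI of each gene after thinning every cell to 1000 UMIs, by library, with exact binomial 95% intervals. YPEL3 and BTG1 show the widest gap between the erlotinib libraries and the other 2, and FOXO3 is highest with KDM5A cDNA, at 19.0%.

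Untreated cells also differed among themselves, by how many cycle transcripts they held. Their cells with at least 1000 UMIs were ranked by S phase and G2/M UMIs after thinning, and the lowest tertile (278 cells, up to 8 cycle UMIs) was set against the highest (290 cells, 17 or more). The classes are ranges of a score, with 23 and 34 cells at the 2 limits, and median depths of 2013 and 2144 UMIs were close. Of the 9 genes, 8 were higher in the cells with few cycle UMIs, and 6 were when the cells were split at the median, where BTG2 and SESN1 turned (ratios 0.753 and 0.703, from 12 and 10 UMIs). Of the 8 genes with at least 10 UMIs over both tertiles, 7 were higher, as were 50% of all genes so counted (5768 of 11535). For 4 of these 8 the counting interval lay above 1, as it did for 10.1% of all genes. At the median split all 9 genes had at least 10 UMIs, and 6 were higher, as were 51.3% of all genes so counted (6438 of 12551). The interval there lay above 1 for 4 of the 9, and for 8.51% of all genes. These are cells of 1 library, and no test was made.

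YPEL5 had the largest ratio of the 9, at 59.5 CPM (95% interval 45.9 to 75.8) in the low-cycle and 17.3 CPM (11.1 to 25.7) in the high-cycle cells, a ratio of 3.45 (2.13 to 5.75). YPEL3 stood at 85.1 and 41.0 CPM, a ratio of 2.08 (1.48 to 2.94). BTG1 stood at 231 and 132 CPM (1.76, 1.45 to 2.14) and FOXO3 at 118 and 79.1 CPM (1.49, 1.15 to 1.94). CCNG2 went the other way under both splits, with 37.5 and 52.5 CPM and an interval that included 1 (0.714, 0.475 to 1.06). For YPEL2, BTG2, PIK3IP1 and SESN1 the intervals were wide and included 1. Among other libraries, the interval lay above 1 only for PIK3IP1 and BTG1. PIK3IP1 did so in the library labelled KDM5A and KDM5B shRNA (ratio 3.47, 1.30 to 11.6, from 24 and 5 UMIs). With CPI-455, KDM5A shRNA and KDM5A cDNA its ratios were 1.05, 1.03 and 0.486. BTG1 did so with KDM5A cDNA (1.44, 1.06 to 1.97) and KDM5A shRNA (1.21, 1.01 to 1.46). Low-cycle cells of erlotinib libraries are those with at most 1 cycle UMI.

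For YPEL3, YPEL5 and BTG1 the low-cycle untreated cells were below all 4 erlotinib libraries, and for FOXO3 they were not. Their 85.1 CPM of YPEL3 compares with 262 to 366 CPM over all cells with the drug, their 59.5 CPM of YPEL5 with 102 to 131, and their 231 CPM of BTG1 with 323 to 420. Their 118 CPM of FOXO3 lay within the 92.3 to 146 CPM of the erlotinib libraries. Their cycle lists took 0.446% of UMIs, against 2.24% in the high-cycle cells. In the erlotinib libraries these lists took 0.105% to 0.125% in the cells with fewest cycle UMIs and 0.204% to 0.402% in those with most. The low-cycle untreated cells were thus not matched to the erlotinib cells in cycle content. The tertiles of scrambled cells, up to 9 and from 14 cycle UMIs, lay closer together, at 0.851% and 1.50% of UMIs, with median depths of 3941.5 and 5261.5 UMIs. Of the 9 genes, 3 were higher in low-cycle scrambled cells: YPEL5 (ratio 1.32), BTG1 (1.29) and FOXO3 (1.01). YPEL3 was at 0.733 (0.311 to 1.66), YPEL2 and BTG2 had 0 UMIs, and 0 intervals lay above 1. There the 9 genes together gave a ratio of 1.09 (0.870 to 1.36), against 1.64 (1.45 to 1.85) in untreated cells. In the erlotinib libraries cycle UMIs were too few for tertiles: cells with at most 1 were set against those with 2 or more, or 3 or more with KDM5A cDNA. The ratio between these classes was 1.01 (0.887 to 1.15) with CPI-455, 1.09 (0.983 to 1.21) with KDM5A shRNA, 1.04 (0.896 to 1.21) in the library labelled KDM5A and KDM5B shRNA and 1.32 (1.09 to 1.60) with the KDM5A cDNA. CCNG2 was at a ratio below 1 in all 6 libraries, from 0.162 in scrambled to 0.767 with KDM5A cDNA, with every interval including 1.

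**Figure D4:**
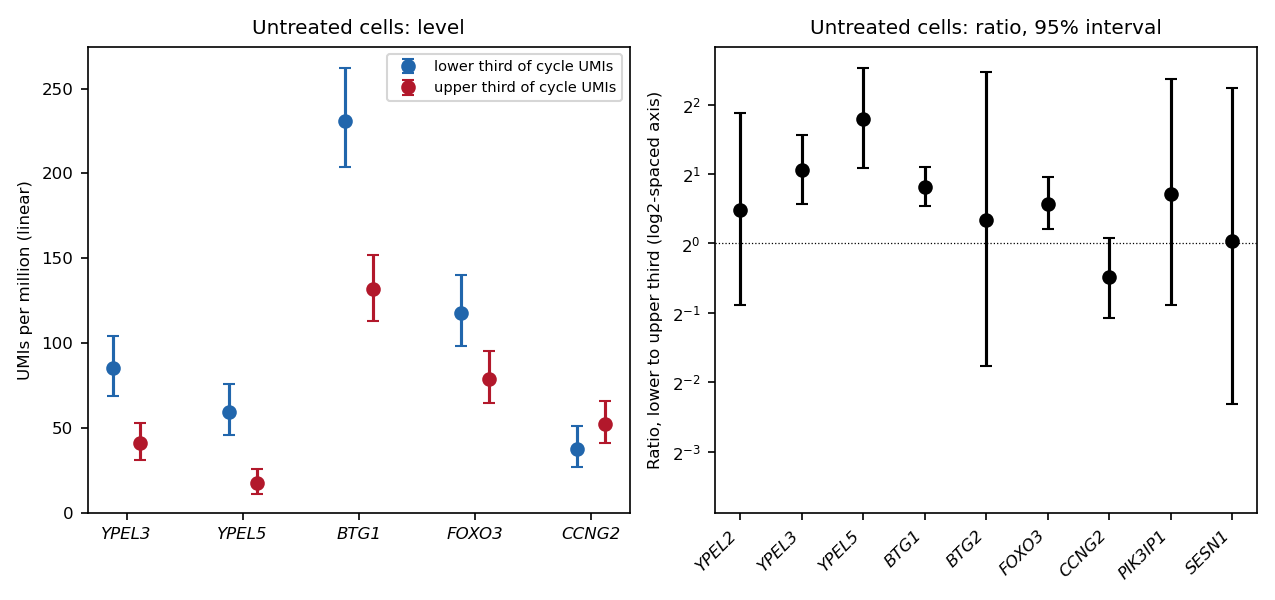
Untreated cells in the lowest and highest tertile of cycle UMIs: left, CPM of the 5 genes with at least 80 UMIs over both classes, and right, the ratio of lowest to highest tertile for all 9 genes on a log2-spaced axis, with exact 95% intervals for counting error. YPEL5, YPEL3, BTG1 and FOXO3 lie above a ratio of 1, and CCNG2 lies below it at 0.714.

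Other genes of the same pathways moved in part. Of 14 tested among 18 other FOXO factors and known FOXO targets, 7 were called higher and 0 lower, where 10.0% of all genes were called higher and 13.5% lower. The median log2 fold was 0.87, against 0.01 over all genes tested. The lists were chosen with earlier results of these data known, so these counts and the median are descriptions. CITED2, a transcriptional coregulator, rose from 33.6 CPM untreated and 19.3 scrambled to between 168 and 238 CPM (log2 fold 2.98, SE 0.28, edgeR adjusted p = 0.000167). KLHL24, a substrate adaptor of a ubiquitin ligase, rose from 6.95 CPM in scrambled cells (9 UMIs) to between 100.0 and 127 CPM with erlotinib. Its level in untreated cells, 79 of 3956647 UMIs, was also below all 4 erlotinib levels. The log2 fold was 2.96 (SE 0.35, edgeR adjusted p = 0.000425). KLHL24 passed the filter on low counts only through the erlotinib libraries, so its call is a description. IGF1R, a growth factor receptor, rose as well, by 1.35 in log2 units (SE 0.26, edgeR adjusted p = 0.00516). GADD45A, a stress-induced growth arrest gene, rose by 1.76 (SE 0.36, edgeR adjusted p = 0.00802).

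For the partners of the listed proteins, counts stand against the 10.0% of all genes called higher and 13.5% called lower. Of 10 CTLH ligase subunits 0 were called in edgeR, with a median log2 fold of 0.01, and of 11 CCR4-NOT subunits 1 was lower, CNOT9 (listed as RQCD1), at -1.49 (SE 0.27, edgeR adjusted p = 0.00345). Of 4 tested relatives in the YPEL, BTG and TOB families 0 were called. Of 7 genes tested in the list of arrestin-domain and MondoA genes 1 rose, TXNRD1, at 0.57 (SE 0.19, edgeR adjusted p = 0.0472). It is a thioredoxin reductase and not itself an arrestin-domain or MondoA gene. Of 14 PI3K and AKT pathway genes 1 rose, the kinase SGK1, at 2.87 (SE 0.62, edgeR adjusted p = 0.0108), and 1 fell, AKT1, at -1.14 (SE 0.33, edgeR adjusted p = 0.031). SGK1 passed the filter on low counts only through the erlotinib libraries, so its call is a description.

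The same shares, 10.0% higher and 13.5% lower over all genes, apply to the last 2 lists. Among 6 tested genes of cyclin G, cyclin I and CDK inhibitors, CDKN2B, which blocks CDK4 and CDK6, rose, at 2.53 (SE 0.49, edgeR adjusted p = 0.00674). Its relatives CDKN2C and CDKN2D fell, at -3.80 (SE 0.90, edgeR adjusted p = 0.0136) and -2.15 (SE 0.50, edgeR adjusted p = 0.0125). Of 13 p53 targets 1 rose, TP53INP1, at 2.51 (SE 0.51, edgeR adjusted p = 0.00698), and 1 fell, the repair gene DDB2, at -1.55 (SE 0.35, edgeR adjusted p = 0.0108). CDKN2B and TP53INP1 passed the filter on low counts only through the erlotinib libraries, and CDKN2C and CDKN2D only through the drug-free ones. Their calls are descriptions.

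Among 5064 other genes at 50 CPM or more in at least 1 library, those whose log2 levels over the 6 libraries most resembled the mean of the 9 genes were PGM2L1, THSD7A, TMOD3, TFDP2 and EPS8, with Pearson's r of 0.993 to 0.999. The 6 points share their libraries and depths, and r is given as a description. PGM2L1, for example, stood at 15.9 and 6.95 CPM without the drug and 35.6 to 53.8 CPM with it.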

How the data were processed

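Drop-seq messenger RNA counts of 6 PC9 libraries were used, 1 per condition. The values deposited are raw counts of UMIs for each gene symbol in each barcode, all whole numbers, as a look at the tables showed. The authors used STAR and FastQC with GRCh37.p13 (hg19), per the submitters' processing notes; the counting tool, strand setting and choice of barcodes are not given in the sources used here. Genes were taken by symbol. The members and lists were chosen with earlier results of these data known.

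Cells were barcodes with at least 500 UMIs and at most 20% MT- UMIs; doublets were not called, since all cells are of 1 line. UMIs were summed per library. Erlotinib was tested with edgeR 4.0.16 (TMM, filterByExpr, robust quasi-likelihood, Benjamini-Hochberg adjusted p under 0.05), 4 libraries against 2, with a biological coefficient of variation of 0.262. The 4 are not replicates of 1 condition, so KDM5 manipulations enter the spread, and p-values measure only the spread among these libraries. All 4 carry a KDM5 manipulation and neither drug-free library does. The fold is therefore that of erlotinib together with such a manipulation, and their parts cannot be told apart. Standard errors come from the fold and its F statistic. Pairs of libraries carry exact conditional 95% intervals and shares exact binomial (Clopper-Pearson) ones, for counting error only. Alternatives used DESeq2 1.42.0, limma 3.58.1, other scalings, filters, cells, thinning and libraries; the fit was tested on simulated data. Named genes are the 9 listed genes, up to 4 called genes with the smallest p in each related list, and the 5 most alike in level. Promoters are RefSeq windows (GRCh38.p14), matched by symbol for all 9, and of use for sequence only. Several listed genes have antisense genes (YPEL2, YPEL3, BTG1, PIK3IP1 and SESN1), whose reads cannot be told apart here.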

Additional observations from a re-analysis of the deposited data

Results flagged for a closer look

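In the 4 erlotinib libraries, 2 of the 9 genes had a library far from the other 3 by Dixon's ratio of the gap to the whole range, as had 5.51% of all genes tested; chance alone gives about 1 in 20. The ratio was 0.831 for YPEL2, only just past the critical value, and 0.857 for PIK3IP1. YPEL2 stood at 42.3 CPM with CPI-455, against 19.3 to 23.2 CPM in the other 3. PIK3IP1 stood at 13.6 CPM with KDM5A cDNA, from 8 UMIs, against 40.1 to 44.5 CPM in the other 3.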

How the results depend on the processing

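With 1 library per condition, depth limits YPEL2, BTG2, PIK3IP1 and SESN1, each with at most 37 UMIs a library, except PIK3IP1 with KDM5A shRNA (71). In 16 other fits of erlotinib, YPEL3 and YPEL5 were called in 16 each, with log2 folds of 2.39 to 3.53 and 1.93 to 3.09. PIK3IP1 was called in 15 of the 15 that tested it (2.81 to 3.88), YPEL2 in 14 of 15 (2.02 to 4.89) and BTG1 in 14 of 16 (0.89 to 1.21). The calls of PIK3IP1 and YPEL2 are descriptions, since these genes passed the filter on low counts only through the erlotinib libraries. FOXO3 was called in 0 of 16 (edgeR, DESeq2 and limma adjusted p from 0.169 to 0.643), CCNG2 in 2 (transduced libraries alone, and all but the untreated library), and BTG2 in 3 of 12. All fits gave positive folds for these genes. The number of listed genes called higher moved from 5 to 3 with cells thinned to 1000 UMIs, where 5 were tested. It was also lower in libraries under 2% processed pseudogene UMIs, as was that of all genes. That alternative was chosen after seeing the data and leaves 1 erlotinib library. In these 2 fits all genes called higher numbered 443 and 353, and lower 490 and 415. In transduced libraries they numbered 479 and 856. With 1 library left out, genes called higher ranged from 500 to 1176 and lower from 860 to 1341, with 520 and 899 without the library labelled KDM5A and KDM5B shRNA, 639 and 860 without the scrambled library and 500 higher without the untreated library. These fits hold fewer samples or genes. With no filter on low counts the median fold of all genes moved by -0.13 on the log2 scale.

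Between libraries, 56 of 66 other counts of genes 2-fold apart stayed within 1.5 times, and the 10 that did not came from thinning, which leaves fewer UMIs. KDM5A cDNA against scrambled cells then had 3 higher of 4 counted, and scrambled against untreated cells 3 lower of 5. Against KDM5A cDNA, the other 3 erlotinib libraries had 1 higher each. CPI-455 against KDM5A shRNA had 0 higher and 0 lower, CPI-455 against the library labelled KDM5A and KDM5B shRNA had 0 higher, and the library labelled KDM5A and KDM5B shRNA against KDM5A shRNA had 0 and 0. The share of cells with a UMI of any listed gene depends on depth by construction. Unthinned it was 53.3% untreated, 62.4% scrambled, 87.1% with CPI-455, 88.0% with KDM5A shRNA, 84.9% with both shRNAs labelled and 84.7% with KDM5A cDNA. Thinned to 500 UMIs it was 18.5%, 14.8%, 43.6%, 39.8%, 34.2% and 37.4% in the same order. With the cycle score split at its median in place of tertiles, 6 of 9 genes were higher in low-cycle untreated cells (8 with tertiles). The interaction with virus called 0 listed genes under all 3 alternatives. Those fits share its lack of replicates, so they do not show equal folds. No paired analysis was possible because each condition has 1 library and the labels give no replicate numbers.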
